A study of Rattus norvegicus with 12 samples.

Results

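The genes described here are Nefl, Nefm and Thy1, which are widely used as markers of retinal ganglion cells, the neurons whose axons form the optic nerve. They were taken by identifier from the deposited table as ENSRNOG00000013658 (Nefl), ENSRNOG00000013916 (Nefm) and ENSRNOG00000006604 (Thy1), 3 of 32883 genes listed, and each of the 3 was present in all 12 libraries. The symbols come with the rule that chose the genes: the RefSeq table used here lists the 3 symbols but pairs 0 of its genes with an Ensembl identifier, so the match was not checked against an annotation.

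Nefl encodes the light and Nefm the medium neurofilament subunit. Neurofilaments are the intermediate filaments of axons. They assemble from the light subunit together with the heavier ones, they set axon calibre, and in the retina they are abundant in ganglion cells and also occur in horizontal cells. Thy1 encodes a small glycoprotein anchored to the outer cell membrane by a lipid, which in the rodent retina is found mainly on ganglion cells and elsewhere also on other cell types. Transcripts of these genes are commonly followed after optic nerve injury, where they fall.

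The libraries were made from retinas taken at postnatal day 18 from Sprague Dawley rats of wild type genotype. There were 4 groups of 3 libraries: oxygen-induced retinopathy (OIR) with a mimic of the microRNA miR-143, OIR with a scrambled RNA, sham with the mimic, and sham with the scrambled RNA. OIR is a rodent model in which changes of oxygen during retinal vessel growth leave parts of the retina without vessels and later provoke abnormal new ones, and the sham groups are its controls. A mimic is a synthetic copy of the mature form, and the scrambled RNA is its control, so that each of the 4 groups had received an RNA. The labels give no oxygen schedule, dose or route of the RNA. They call the triplicates biological but do not say that replicates are separate animals. The p-values therefore reflect library-to-library spread, and how much of it lies between animals is not known. OIR scrambled replicate 3 and OIR mimic replicate 1 have no condition tags and were grouped by their titles. The column names carry the letter L in each mimic library and R in each scrambled library, so letter and injection cannot be told apart. Sham mimic replicate 1 and sham scrambled replicate 1 carry the same number, while within each group the 3 numbers differ.

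The injected sequence is not spelled out in the labels, nor is the arm of the microRNA. The mature forms of rat miR-143 are shown because they define the treatment; they are from RefSeq (GRCr8), written 5′ to 3′, and capitals mark the seed, bases 2 to 8, the part that pairs with target transcripts.
rno-miR-143-3p: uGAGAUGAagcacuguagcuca
rno-miR-143-5p: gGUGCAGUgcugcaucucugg

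Levels are given in TPM, which correct the reads of a gene for its length and for the size of the library, so that they can be compared between genes. The libraries held 10537600 to 13175005 reads assigned to genes. The 3 genes were among the more abundant ones: by mean level, Thy1 ranked 415 in OIR and 230 in sham among 15916 genes tested, Nefl 996 in OIR and 364 in sham, and Nefm 2404 in OIR and 1074 in sham. Their values rest on 808 to 7837 reads per library. The counting error of a single value was between 1.13% and 3.52% and covers counting only. The other identifiers have no symbols here, so the retina label and markers of other cell types were not analysed.

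All 3 genes were lower in OIR than in sham retinas. Averaged over both injections, mean Nefl in OIR was 49.0% of that in sham, Nefm 53.8% and Thy1 64.8%, and each of the 6 OIR libraries lay below each of the 6 sham libraries for each gene. Such a complete separation downwards was found for 7.89% of all tested genes. In whole retinas, fewer cells of a type and less RNA per cell cannot be told apart.

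Nefl, the light subunit, had 190, 95.5 and 144 TPM in OIR mimic libraries, 239, 185 and 178 TPM in OIR scrambled libraries, 324, 373 and 349 TPM in sham mimic libraries and 354, 335 and 371 TPM in sham scrambled libraries. The 2 OIR groups overlapped, the 2 sham groups overlapped, and no OIR library reached a sham library. The OIR libraries averaged 172 ± 48.4 TPM and the sham libraries 351 ± 19.4 TPM (SD, n = 6 each). On the log2(TPM + 1) scale the averaged difference of OIR minus sham was -1.08 (SE 0.14, 95% interval -1.39 to -0.77) with a limma adjusted p of 0.000289.

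Nefm, the medium subunit, had 94.1, 44.7 and 71.1 TPM in OIR mimic libraries, 123, 93.0 and 89.6 TPM in OIR scrambled libraries, 149, 151 and 155 TPM in sham mimic libraries and 188, 151 and 163 TPM in sham scrambled libraries. Sham scrambled replicate 1 stood above the other sham libraries, and OIR mimic replicate 2 below all others. The OIR libraries averaged 85.8 ± 26.1 TPM and the sham libraries 159 ± 14.7 TPM (SD, n = 6 each). The averaged log2 difference of OIR minus sham was -0.94 (SE 0.15, 95% interval -1.28 to -0.61) with a limma adjusted p of 0.00102.

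Thy1, the membrane glycoprotein, had 332, 207 and 295 TPM in OIR mimic libraries, 405, 371 and 335 TPM in OIR scrambled libraries, 462, 536 and 514 TPM in sham mimic libraries and 482, 495 and 515 TPM in sham scrambled libraries. It was the most abundant of the 3 genes in each of the 12 libraries, followed by Nefl and then Nefm. The OIR libraries averaged 324 ± 68.7 TPM and the sham libraries 501 ± 26.5 TPM (SD, n = 6 each). The averaged log2 difference of OIR minus sham was -0.65 (SE 0.10, 95% interval -0.88 to -0.43) with a limma adjusted p of 0.000672.

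**Figure D1:**
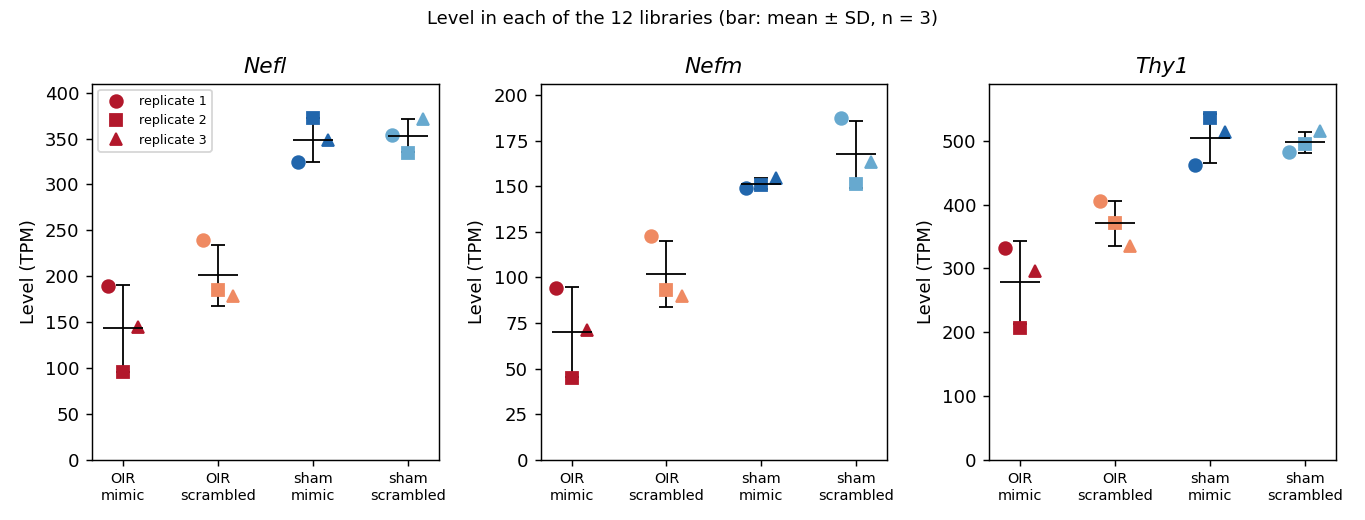
Level of Nefl, Nefm and Thy1 in TPM (vertical axes, from 0) in each library of the 4 groups; points are libraries, shaped by replicate, and bars are the mean ± SD (n = 3). Every OIR library lies below every sham library in each panel, and OIR mimic replicate 2 is the lowest library for all 3 genes (95.5 TPM for Nefl, 44.7 TPM for Nefm and 207 TPM for Thy1).

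In this averaged comparison 3 of the 3 genes were called lower at an adjusted p below 0.05, against 12.8% of the 15916 genes tested. Among the 4279 genes with a mean of at least 50 TPM, to which all 3 belong, 15.4% were called lower. Of all tested genes, 78 had a lower log2 fold change than Nefl, 128 a lower one than Nefm and 528 a lower one than Thy1. The median log2 fold change was 0.04 over all tested genes, and -0.94 over the 3 genes. The position of the 3 genes in the distribution of abundant genes is a description, since they were chosen with earlier results of these data known.

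**Figure D2:**
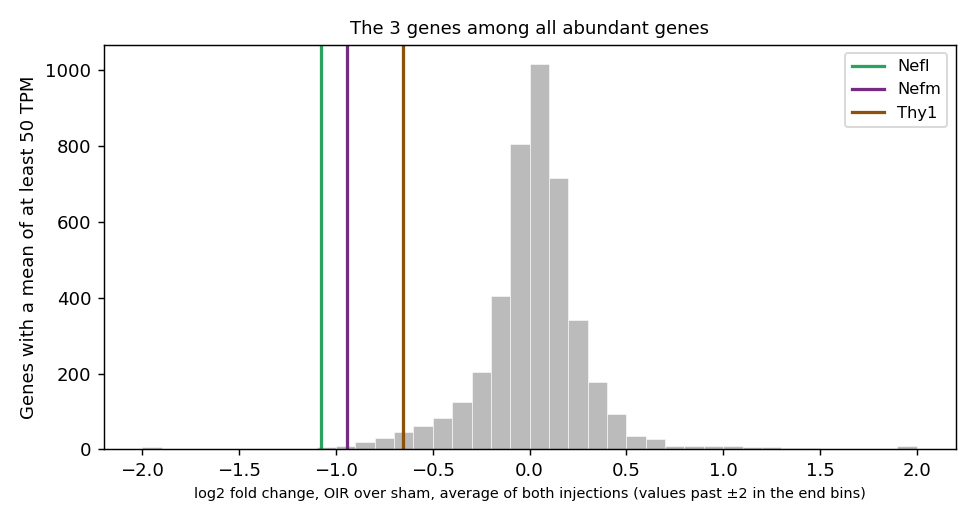
Histogram of the log2 fold change of OIR over sham, averaged over both injections (horizontal axis), for the 4279 genes with a mean of at least 50 TPM (vertical axis, number of genes). The vertical lines mark Nefl at -1.08, Nefm at -0.94 and Thy1 at -0.65, in the left tail of a distribution centred near 0.03.

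The difference was tested next within each injection. With the mimic, Nefl averaged 143 ± 47.2 TPM in OIR and 348 ± 24.3 TPM in sham, Nefm 70.0 ± 24.8 TPM in OIR and 151 ± 2.91 TPM in sham, and Thy1 278 ± 64.6 TPM in OIR and 504 ± 38.2 TPM in sham (SD, n = 3 each). The log2 fold changes were -1.33 (SE 0.20) for Nefl, -1.17 (SE 0.22) for Nefm and -0.88 (SE 0.14) for Thy1. All 3 were called lower (limma adjusted p 0.00151, 0.0042 and 0.00204), against 9.77% of all tested genes. Nefl thus stood in OIR at 41.1% of its sham mean, Nefm at 46.2% and Thy1 at 55.2%. The calls held without any single library.

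With scrambled RNA, Nefl averaged 201 ± 33.7 TPM in OIR and 353 ± 18.1 TPM in sham, Nefm 102 ± 18.1 TPM in OIR and 168 ± 18.4 TPM in sham, and Thy1 370 ± 34.7 TPM in OIR and 497 ± 16.3 TPM in sham (SD, n = 3 each). Nefl was called lower, with a log2 fold change of -0.82 (SE 0.20, limma adjusted p 0.0247). Nefm had -0.72 (SE 0.22, limma adjusted p 0.057) and Thy1 -0.43 (SE 0.14, limma adjusted p 0.0782), which missed the threshold. Thus 1 of the 3 genes was called lower, against 3.91% of all tested genes. These calls depended on single libraries: that of Nefl was lost without OIR scrambled replicate 2 or 3 or any 1 of the 3 sham scrambled libraries (limma adjusted p 0.0621 to 0.0972). Nefm was called without OIR mimic replicate 1 or 2 or OIR scrambled replicate 1 (limma adjusted p 0.00700 to 0.0458), and Thy1 without OIR mimic replicate 1 or 2 (0.0446 and 0.00809), the OIR mimic libraries entering only through the common estimate of the spread.

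In OIR retinas the mimic libraries were lower on average than the scrambled libraries for all 3 genes, but none passed the test. The mean with the mimic was 71.3% of that with scrambled RNA for Nefl, 68.8% for Nefm and 75.1% for Thy1. For Nefl and Nefm, 7 of the 9 pairs of an OIR mimic and an OIR scrambled library had the lower value in the mimic library. For Thy1 all 9 did, with 332 TPM in the highest mimic library and 335 TPM in the lowest scrambled library. In sham retinas the count of pairs with the lower value in the mimic library was 5 of 9 for Nefl, 8 of 9 for Nefm and 4 of 9 for Thy1. Of all tested genes, 9.01% had OIR mimic libraries wholly below the OIR scrambled ones. The log2 fold changes were -0.53 for Nefl (95% interval -0.96 to -0.09), -0.58 for Nefm (-1.06 to -0.11) and -0.44 for Thy1 (-0.75 to -0.12), with limma adjusted p of 0.475, 0.473 and 0.462. The unadjusted limma p were 0.0226, 0.021 and 0.0104. These intervals and p rest on 1 spread common to all 4 groups, the less variable sham groups included, with SE 0.20, 0.22 and 0.14. With only the 2 OIR groups fitted, the SE were larger, 0.25 for Nefl, 0.26 for Nefm and 0.17 for Thy1. The limma adjusted p was then 0.762 for each.

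No gene of the whole table was called in that comparison (limma, 0% of 15916 genes; voom on recovered reads called 0), while 1491 genes had an unadjusted limma p under 0.05. The count was 25 without OIR mimic replicate 1 and 28 without both libraries that lack condition tags. The size of the difference depended on OIR mimic replicate 2. Without it the log2 fold changes were -0.26 for Nefl, -0.30 for Nefm and -0.24 for Thy1 (limma adjusted p 1 for each), and without OIR mimic replicate 1 they were -0.76 for Nefl, -0.83 for Nefm and -0.58 for Thy1 (limma adjusted p 0.0745, 0.0779 and 0.0793). Without both libraries that lack condition tags they were -0.84, -0.91 and -0.65 (limma adjusted p 0.112 for each).

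In sham retinas the mimic and scrambled groups overlapped for each of the 3 genes. Nefl averaged 348 TPM with the mimic and 353 TPM with scrambled RNA, a log2 fold change of -0.02 (95% interval -0.46 to 0.42). Thy1 averaged 504 TPM with the mimic and 497 TPM with scrambled RNA, with 0.02 (-0.30 to 0.33), and its sign, like that of Nefl, changed when single libraries were left out. Nefm averaged 151 TPM with the mimic and 168 TPM with scrambled RNA, with -0.14 (-0.62 to 0.34). Without sham scrambled replicate 1 the value for Nefm was -0.06, and without sham scrambled replicate 2 it was -0.21. None was called, with a limma adjusted p of 1 for each, and the share called over the whole table was 0% (voom on recovered reads also called 0 genes, and 333 had an unadjusted limma p under 0.05). A p that misses the threshold does not show that the groups were alike, and the widest of these intervals, that of Nefm, reaches down to -0.62. The intervals use the spread common to all 4 groups, the more variable OIR libraries included, with SE 0.20 for Nefl, 0.22 for Nefm and 0.14 for Thy1. With only the 2 sham groups fitted, the SE were smaller, 0.069 for Nefl, 0.081 for Nefm and 0.067 for Thy1.

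The effect of the mimic in OIR was more negative than that in sham by 0.51 on the log2 scale for Nefl (95% interval -1.13 to 0.11), by 0.44 for Nefm (-1.12 to 0.23) and by 0.45 for Thy1 (-0.89 to -0.01). Without OIR mimic replicate 2 the differences were -0.24 for Nefl, -0.16 for Nefm and -0.25 for Thy1. Without OIR mimic replicate 1 they were -0.74 for Nefl, -0.69 for Nefm and -0.59 for Thy1, and without both libraries that lack condition tags -0.815, -0.77 and -0.66. None of these differences passed the test, with a limma adjusted p of 1 for each, and 0% of all genes did (voom on recovered reads also called 0 genes, and 589 had an unadjusted limma p under 0.05). The same quantities state how far the drop in OIR was larger with the mimic than with scrambled RNA, which is therefore not shown to differ between the injections.

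**Figure D3:**
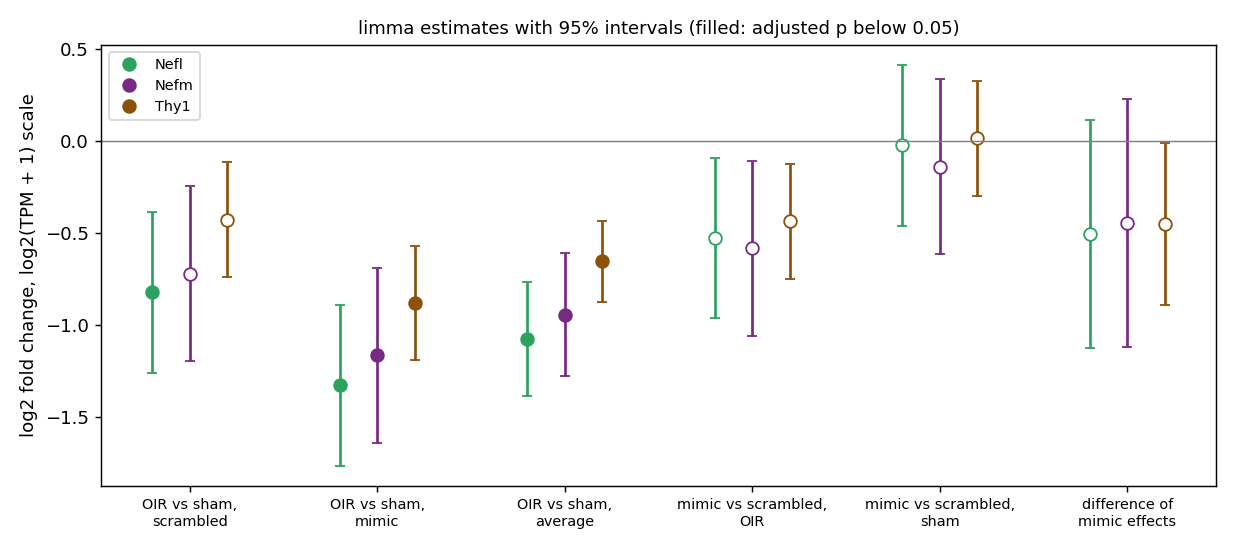
Log2 fold change with its 95% interval (vertical axis, log2(TPM + 1) scale) for each gene in the 6 comparisons (horizontal axis), from limma with 3 libraries per group; filled points have an adjusted p below 0.05 over all genes. Estimates for OIR against sham lie between -1.33 and -0.43, with the intervals below 0, while those for the mimic in sham lie between -0.14 and 0.02.

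The libraries spread more in OIR than in sham. Over the 6 OIR libraries the coefficient of variation was 28.1% for Nefl, 30.4% for Nefm and 21.2% for Thy1, against 5.52%, 9.22% and 5.29% over the 6 sham libraries. The median over the 4279 genes with a mean of at least 50 TPM was 7.68% in OIR and 6.20% in sham. In OIR, 1.94% of these genes had a larger coefficient of variation than Nefl, 1.64% than Nefm and 4.56% than Thy1. In sham the shares were 58.5%, 23.0% and 61.8%, so larger spreads than those of Nefl and Thy1 were found in most of these genes there. The OIR values contain the injection groups. Inside these it was 33.0% for Nefl, 35.4% for Nefm and 23.2% for Thy1 over the 3 OIR mimic libraries. Over the 3 OIR scrambled libraries it was 16.8%, 17.8% and 9.37%. The 3 sham mimic libraries had 6.98%, 1.92% and 7.58%, and the 3 sham scrambled libraries 5.13%, 11.0% and 3.27%. For Thy1 the OIR scrambled value was thus near that of sham mimic. Shares over all genes were not computed for groups of 3.

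The 6 OIR libraries stood in the same order for Nefl and Nefm, from OIR scrambled replicate 1 at the top to OIR mimic replicate 2 at the bottom. Thy1 had the same libraries at both ends, with changes of order between them. Over the 6 OIR libraries Pearson r (and Spearman rho) was 0.98 (0.83) between Nefl and Thy1, 1.00 (1) between Nefm and Nefl and 0.98 (0.83) between Nefm and Thy1. Over the 6 sham libraries, where the spread was smaller, it was 0.82 (0.83) between Nefl and Thy1, 0.32 (0.37) between Nefm and Nefl and -0.16 (0.086) between Nefm and Thy1. Without the 2 libraries farthest from the median of Thy1, r between Nefl and Thy1 was 0.83 in OIR and 0.39 in sham. Between Nefm and Thy1 it was then 0.85 in OIR and -0.63 in sham. Without the 2 libraries farthest from the median of Nefl, r between Nefm and Nefl was 0.998 in OIR and 0.43 in sham. These values are a description over libraries that share 1 scaling for both genes. OIR mimic replicate 2, the lowest library, had 11801767 reads on genes, and OIR mimic replicate 3 had 10537600. On the first principal component of all tested genes the sham libraries lay between -28.2 and -23.7. OIR mimic replicate 2 had a score of 26.9 there. Farthest out were both libraries that lack condition tags. OIR scrambled replicate 3 had 37.6 with 178 TPM of Nefl, and OIR mimic replicate 1 had 30.8 with 190 TPM of Nefl. Over all tested genes, the root mean square distance of OIR mimic replicate 2 from its group mean was 0.286. It was 0.252 to 0.297 in the other OIR libraries. The share of TPM held by the 10 most abundant genes was 12.3% in OIR mimic replicate 2. That share was 7.53% to 10.4% in the other OIR libraries and 11.9% to 13.2% in sham. It was lowest in the libraries without tags, 7.53% in OIR scrambled replicate 3 and 9.26% in OIR mimic replicate 1. The part of depth, of these distances and of that share in the low values of the 3 genes was not tested.

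The ratio between genes within a library does not depend on the scaling of that library. Nefl over Thy1 was 0.571, 0.462 and 0.489 in OIR mimic libraries, 0.592, 0.498 and 0.531 in OIR scrambled libraries, 0.702, 0.695 and 0.678 in sham mimic libraries and 0.734, 0.676 and 0.721 in sham scrambled libraries. All 6 OIR ratios lay below all 6 sham ratios, with a mean of 0.524 ± 0.0502 in OIR and 0.701 ± 0.0231 in sham (SD, n = 6 each). The light neurofilament subunit was thus lower relative to Thy1 in each OIR library than in any sham library. How many other genes separate in this way relative to Thy1 was not counted.

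Nefm over Thy1 averaged 0.260 ± 0.031 in OIR and 0.319 ± 0.0369 in sham (SD, n = 6 each), and the groups overlapped, with 0.303 in the highest OIR library and 0.281 in the lowest sham library. The ratio of the 2 subunits, Nefm over Nefl, averaged 0.496 ± 0.0152 in OIR and 0.455 ± 0.0411 in sham (SD, n = 6 each). It lay between 0.468 and 0.512 in the OIR libraries although Nefl itself ranged from 95.5 to 239 TPM there. In sham it lay between 0.405 and 0.529, the highest in sham scrambled replicate 1 and the next highest at 0.459. Ratios are given as a description, with no test.

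**Figure D4:**
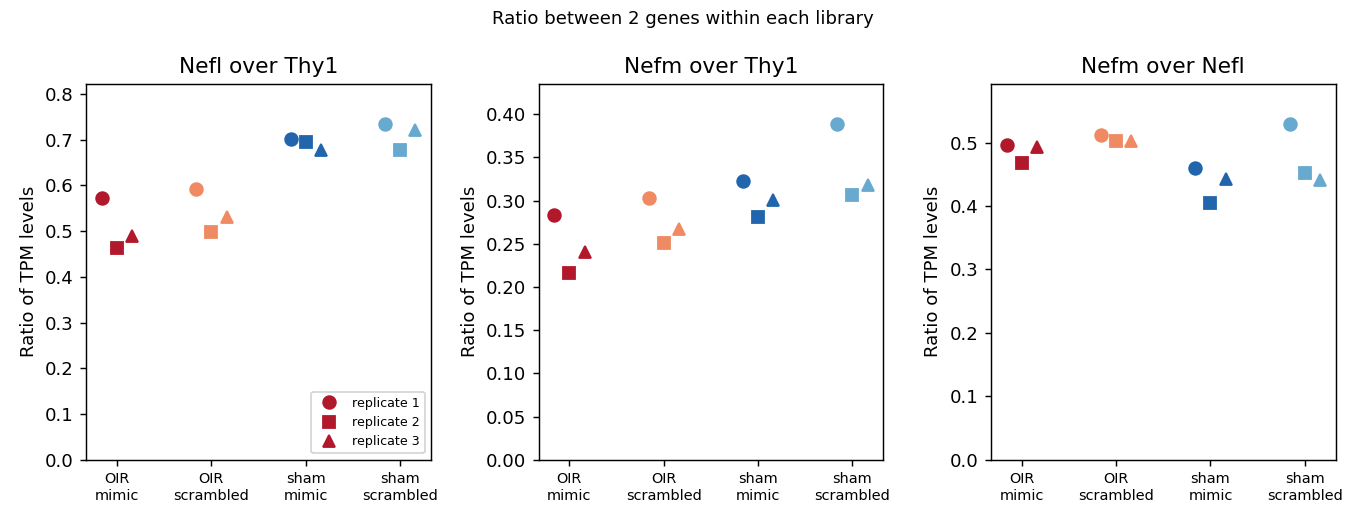
Ratio of TPM levels between 2 of the genes (vertical axes, from 0) in each library of the 4 groups; points are libraries, shaped by replicate. Nefl over Thy1 is at most 0.592 in OIR and at least 0.676 in sham, whereas Nefm over Nefl overlaps between OIR (0.468 to 0.512) and sham (0.405 to 0.529).

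Nefl and Nefm are neighbouring protein-coding genes on rat chromosome 15 in the GRCr8 annotation, and Thy1 lies on chromosome 8 between Nectin1 and Usp2. In that annotation Nefm overlaps the protein-coding gene LOC134482139. The submitters' notes name another build, rn6, and the sources do not say whether the counting included this gene or used strand. Whether the overlap touches the Nefm reads is therefore not known.

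Other genes followed the same pattern. Of 10299 further genes with a mean of at least 10 TPM, 257 had a mean Pearson r above 0.95 with the 3 genes over the 12 libraries, which are mostly set apart by OIR and sham. The most alike by this mean r was ENSRNOG00000029784 with 0.989, and 0.953 for the deviations from the group means. It had 37.2 ± 7.29 TPM in OIR and 55.8 ± 1.65 TPM in sham (SD, n = 6 each). ENSRNOG00000008625 came next with a mean r of 0.988, and 0.955 for the deviations, with 23.0 ± 6.23 TPM in OIR and 43.4 ± 2.38 TPM in sham. Neither of these identifiers is named in the sources used here. Ranked by the deviations alone, other genes came first, the highest with a mean r of 0.960.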

How the data were processed

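RNA of dissected rat retinas was sequenced as single-end reads of 50 bases, per the labels' protocols, which speak of miRNA libraries while the table lists Ensembl genes. Per the submitters' processing notes, FastQC, TopHat, Cufflinks and Cuffdiff and the build rn6 were used, with no roles or versions. No label or header says which tool counted the reads. TPM values as deposited by the authors cover 32883 genes, 22310 of them above 0. Titles above the table map its 12 columns to samples. TPM values were whole multiples of 1 read, so reads were recovered for 22310 genes (tolerance 0.02; recomputed TPM differed by at most 5.4e-08), after a test on simulated data. Replicates differed by more than counting error (chi-square per degree of freedom 4.67 to 22.6 in 12 pairs).

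Genes with at least 1 TPM in at least 3 libraries were tested (15916, all 3 members included) on log2(TPM + 1) with limma 3.58.1 in R 4.3.3, 1 mean per group, 8 residual degrees of freedom, trend and robust eBayes, and Benjamini-Hochberg adjustment over all genes within each comparison (threshold 0.05). The fit was tested on simulated data. This scale slightly understates changes. The members and settings were chosen with earlier results of these data known. The gene lists planned by symbol could not be used. Besides the 3 members, the rule for named genes took the genes most alike by Pearson r, of which 2 unnamed identifiers are given.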

Additional observations from a re-analysis of the deposited data

How the results depend on the processing

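The averaged comparison of OIR and sham and that with the mimic kept the call of each of the 3 genes under every alternative run, with log2 fold changes of -1.19 to -0.95 (Nefl), -1.07 to -0.80 (Nefm) and -0.73 to -0.55 (Thy1) for the average. With scrambled RNA the calls changed. Nefm and Thy1 passed the threshold with median-ratio scaling (-0.77 and -0.47), with only the 2 groups compared (-0.72 and -0.43) and with voom on recovered reads (-0.72 and -0.42). With the replicate block Nefm passed (-0.72, limma adjusted p 0.0271) and Thy1 did not; it changed no other call. The replicate numbers of the titles were not treated as pairing the libraries, since the labels do not say that they do. The correlations of deviations between same-numbered libraries ran from -0.0394 to 0.258. The highest was that of sham mimic and sham scrambled replicate 1, the only such pair whose columns share a number. Whether that number marks 1 animal is not stated in the labels. Nefl missed the threshold when both libraries with the shared number were left out (-0.82, limma adjusted p 0.0921). For these 3 values the cause was not tested. With 1 library left out the ranges were -0.96 to -0.74 (Nefl), -0.86 to -0.64 (Nefm) and -0.49 to -0.36 (Thy1).

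For the mimic in sham, Nefl turned positive with median-ratio scaling (0.013), voom (0.0074) and both libraries with the shared number left out (0.032). With 1 library left out Nefl ranged from -0.071 to 0.030, Nefm from -0.21 to -0.06 and Thy1 from -0.030 to 0.078. The difference of mimic effects then ranged from -0.74 to -0.24 for Nefl, from -0.69 to -0.16 for Nefm and from -0.59 to -0.25 for Thy1.

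Counts of called genes moved more. For OIR with scrambled RNA there were 1704 genes in the reported fit, 931 without both libraries lacking condition tags, 735 without both with the shared number, and 806 to 2175 without 1 library. With the mimic there were 3108, and 2041 to 3278 without 1 library. For the mimic in OIR the count was 0, and 1 with a pseudocount of 0.1, no filter or only the groups compared, 28 without both untagged libraries and 0 to 25 without 1 library. For the mimic in sham and the difference of mimic effects it was 0, with 2 each for a pseudocount of 0.1, 1 for the difference with no filter, and 0 to 1 without 1 library. The counting error of the 3 genes was at most 3.52% per value; other effects of depth were not tested.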
